A study of Mus musculus with 11 samples.

Results

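The dynein arm preassembly factors described here are 9 genes, Dnaaf1, Dnaaf2, Dnaaf3, Dnaaf5, Lrrc6, Zmynd10, Spag1, Pih1d2 and Pih1h3b. They were chosen by name, as the rows of the gene count table whose Ensembl identifier carries one of these symbols in the GENCODE M21 annotation, and they are 9 of the 23074 genes in the table. All 9 passed the filter on low counts, as did 15745 genes in all. Testis RNA was sequenced from 5 wild type and 6 Rfx2-/- mice at postnatal day 21 (P21), to ask which transcripts depend on RFX2, a transcription factor of the RFX family that is made in spermatocytes and early round spermatids. In the Rfx2-/- mice exon 7 of both Rfx2 alleles had been deleted through the germ line with ACTB-cre, so every cell of the body lacks it, and the wild type mice carry no deletion. Per the labels, mice of both genotypes had a mixed C57BL/6, 129/Sv and FVB/N background, and each library came from the whole testis without its capsule, so it holds germ cells of all stages reached by P21 together with somatic cells.

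Axonemal dyneins are the motors that bend motile cilia and the sperm flagellum. Their heavy, intermediate and light chains are folded and joined in the cytoplasm before transport into the axoneme, by proteins that work with the HSP90 and HSP70 chaperones and the R2TP complex. Loss of such a factor leaves cilia or sperm without inner or outer dynein arms and causes primary ciliary dyskinesia or male infertility. Among the 9 genes, Dnaaf2, Pih1d2 and Pih1h3b encode proteins of the PIH domain family, which act as adaptors between clients and HSP90. Spag1 encodes a tetratricopeptide repeat protein that binds chaperones. Zmynd10 and Lrrc6 encode proteins that bind each other. Dnaaf1 encodes a leucine-rich repeat protein, and Dnaaf5 a HEAT repeat protein. Dnaaf3 encodes a further cytoplasmic assembly factor.

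RFX proteins bind the X-box, a near-palindromic motif. The 300 bases of RefSeq promoter sequence (GRCm38.p6), from 250 before to 50 after the first transcribed base, were at hand for 6 of the 9 genes, Dnaaf2, Dnaaf3, Dnaaf5, Zmynd10, Pih1d2 and Pih1h3b. Both strands were searched for an X-box with a gap of 0 to 3 bases. It was found in 2 of these 6 promoters, and in 1.53% of all 32851 promoters of that length. The stretches that hold it are shown 5′ to 3′ on the strand of the gene, with the motif in capitals, because they belong to genes whose transcript levels are compared below. The matching stretch of Pih1d3, the autosomal relative of Pih1h3b, is shown with them, and so is that of Zmynd10. Read on the opposite strand, the capitals of Zmynd10 differ from the motif at 1 base. The Dnaaf2 motif is likewise a match when read on the opposite strand. Bases are counted from 1 at the first transcribed base, with negative numbers before it.
Dnaaf2, chr12:69198430-69198506, minus strand, motif from -17 to -4: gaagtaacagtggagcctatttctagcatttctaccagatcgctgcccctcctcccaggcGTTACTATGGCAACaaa
Pih1h3b, chrX:140062812-140062885, plus strand, motif from -7 to 7: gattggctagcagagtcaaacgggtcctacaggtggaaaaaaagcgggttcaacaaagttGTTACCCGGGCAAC
Pih1d3, chr1:31222720-31222813, plus strand, motif from -59 to -46: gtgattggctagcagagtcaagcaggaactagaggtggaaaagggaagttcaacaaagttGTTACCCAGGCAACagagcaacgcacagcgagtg
Zmynd10, chr9:107547244-107547317, plus strand, motif with 1 mismatch from 1 to 14: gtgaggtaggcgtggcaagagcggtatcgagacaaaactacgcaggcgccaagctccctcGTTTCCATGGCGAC

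The motifs of Pih1h3b and Pih1d3 were identical at 13 of 14 bases. When 1 mismatch was allowed, 3 of the 6 promoters held a match, against 11.2% of a sample of 3286 promoters. The shorter sequence GTTGCC, on either strand, was present in 4 of the 6, in Dnaaf2, Dnaaf5, Zmynd10 and Pih1h3b, against 12.5% of all promoters. In Dnaaf2 and Pih1h3b it overlapped the X-box. A match is a stretch of letters and does not show that RFX2 binds there.

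Total counts lay between 26925157 and 29769483 per wild type mouse and between 22232097 and 27116903 per Rfx2-/- mouse (exact permutation test, two-sided, p = 0.01299, where 0.004329 is the smallest value possible). Levels are therefore given as CPM, the counts of a gene scaled to a library of fixed size, with library sizes adjusted by TMM. A count of 3, taken as the floor, corresponds to 0.0852 to 0.139 CPM and reflects counting error alone. The whole-gene count of Rfx2 does not test the deletion of a single exon. Rfx2 averaged 326 ± 118 CPM over the 5 wild type mice and 304 ± 14.6 CPM over the 6 Rfx2-/- mice (± SD). Genotypes were compared with edgeR's quasi-likelihood test over all 15745 genes, and a gene was called where its p, adjusted by Benjamini and Hochberg's method, did not exceed 0.01. By this rule 305 genes were called lower in Rfx2-/- testis, or 1.94%, and 115 were called higher, or 0.73%. In bulk tissue, fewer cells of a type and less RNA per cell cannot be told apart. Wild type replicates 3 and 5 stood apart from all other mice by low levels of late spermatocyte markers, so the results are also given without them. The same mice had the highest mean log2 CPM of spermatogonia, Sertoli, peritubular, macrophage and endothelial markers. CPM are shares of a library, so a smaller share of 1 cell type raises those of the others. Which cell types differed in amount in these mice was not tested.

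Of the 9 preassembly factors, Zmynd10 and Pih1h3b fell in Rfx2-/- testis and none was called higher. Zmynd10 fell 2.73-fold and Pih1h3b fell 2.05-fold. Spag1 stood 1.98-fold higher on average without passing the call, and its genotypes did not overlap. The other 6 genes, Dnaaf1, Dnaaf2, Dnaaf3, Dnaaf5, Lrrc6 and Pih1d2, had overlapping genotypes. The median log2 fold change of the 9 genes was -0.105, beside -0.052 over all genes tested, with 6 values below 0 and 3 above. The median of the 9 was 0.024 without wild type replicate 1, -0.381 without wild type replicates 3 and 5, and -0.561 with a late spermatocyte score as covariate, so neither its sign nor its size was firm.

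**Figure D1:**
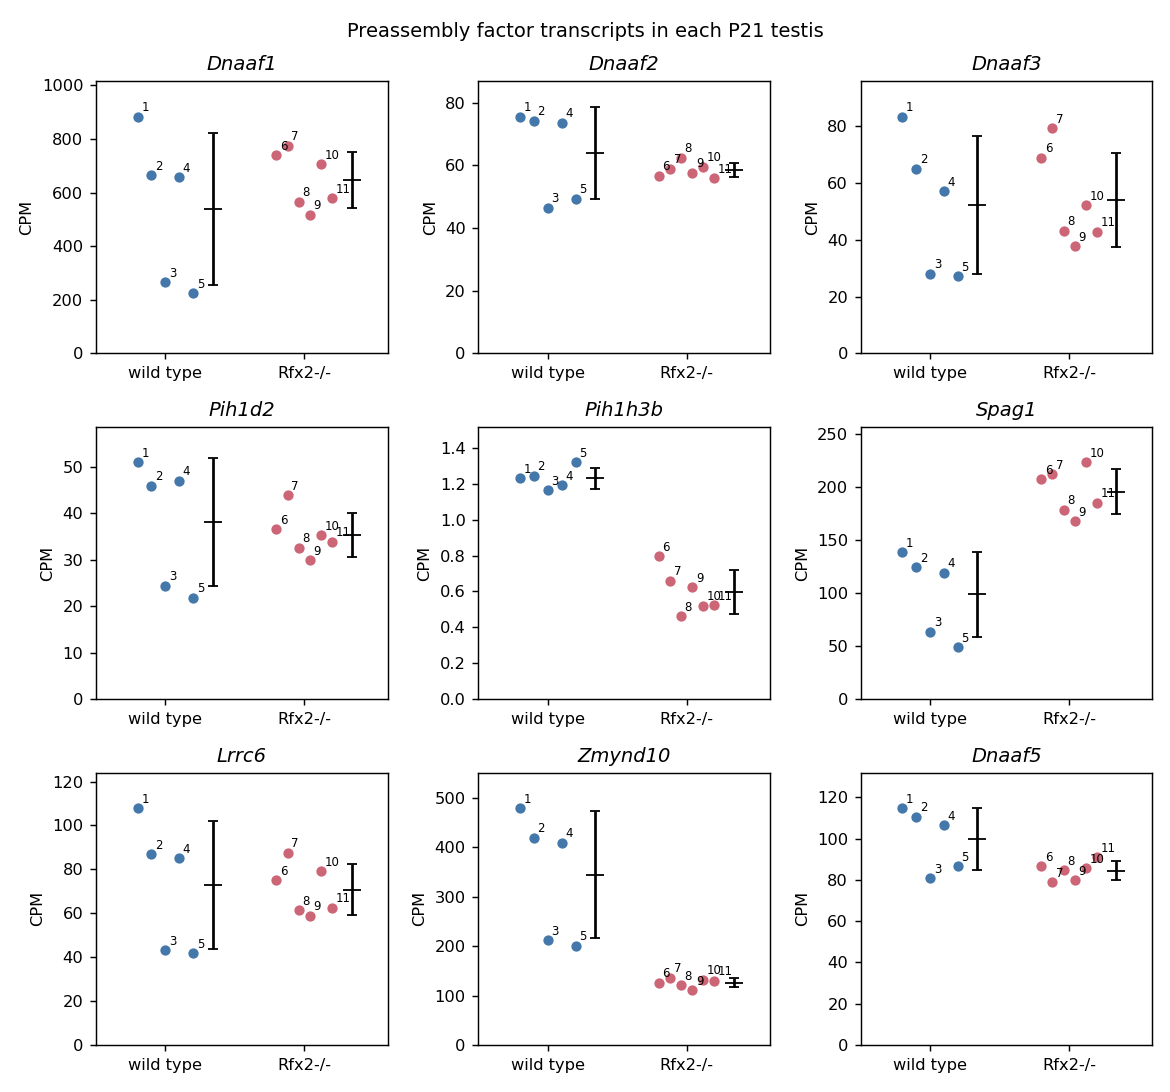
Transcript level (CPM, linear axis from 0) of the 9 preassembly factors in each testis. Each point is 1 mouse with its number, and bars show mean ± SD of 5 wild type and 6 Rfx2-/- mice. Zmynd10 and Pih1h3b were lower in every Rfx2-/- mouse than in any wild type mouse, Spag1 was higher, and wild type replicates 3 and 5 lay below the other wild type mice for every gene but Pih1h3b.

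The Zmynd10 protein has a zinc finger of the MYND type at its end and is required for assembly of both the inner and the outer dynein arms. The levels of Zmynd10 (ENSMUSG00000010044, chr9:107547298-107551319 on the plus strand of GRCm38) were 479, 419, 212, 409 and 201 CPM in the 5 wild type mice, replicates 1 to 5. In Rfx2-/- testis the lowest value was 111 CPM, the median 128 CPM and the highest 136 CPM. Every Rfx2-/- mouse was thus below the lowest wild type mouse. Such a separation, with Rfx2-/- testis lower, was seen in 5.2% of the genes tested. Means were 344 ± 128 CPM (SD, n = 5) and 126 ± 9.12 CPM (SD, n = 6), with a log2 fold change of -1.45 (SE 0.219, 95% interval -1.93 to -0.97, edgeR adjusted p = 0.00263). Zmynd10 was called lower in each of the 11 fits that left out 1 mouse, with adjusted p between 0.00074 and 0.0096.

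Pih1h3b, the X-linked PIH gene (ENSMUSG00000042433, chrX:140062879-140106797 on the plus strand of GRCm38), was close to the lower end of what these libraries could measure. It had 34 to 42 reads per wild type mouse and 10 to 20 reads per Rfx2-/- mouse. Its levels in wild type replicates 1 to 5 were 1.23, 1.25, 1.16, 1.19 and 1.32 CPM. In Rfx2-/- testis the lowest value was 0.462 CPM, the median 0.572 CPM and the highest 0.798 CPM, again with no overlap. The log2 fold change was -1.03 (SE 0.159, 95% interval -1.38 to -0.68, edgeR adjusted p = 0.00291). This call was narrow, since the adjusted p was 0.0107 when wild type replicate 2 was left out and 0.01004 when Rfx2-/- replicate 10 was, and Pih1h3b was not tested when a mean count of at least 50 was asked for.

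Pih1d3, on chromosome 1, was set beside Pih1h3b as its autosomal relative, after its values were seen. In the annotation its 1451 bases of exon fill the whole gene, from 31222838 to 31224288, so it has no intron, whereas Pih1h3b has 1509 bases of exon. Pih1d3 was the more abundant of the pair, averaging 17.5 ± 6.47 CPM over 5 wild type mice and 11.1 ± 1.22 CPM over 6 Rfx2-/- mice (± SD). Its log2 fold change of -0.65 did not pass the call (SE 0.226, edgeR adjusted p = 0.06493). Of the 1464 stretches of 46 bases in Pih1h3b, 21 also occur in transcripts of other genes, so few reads could be shared between the relatives.

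Spag1 (ENSMUSG00000037617, chr15:36178099-36235621 on the plus strand of GRCm38), the chaperone-binding factor, differed in the opposite direction. Its levels in wild type replicates 1 to 5 were 139, 124, 63.7, 119 and 48.8 CPM. The Rfx2-/- mice had at least 168 CPM, a median of 196 CPM and at most 223 CPM. All 6 of them lay above the highest wild type mouse, a separation seen with Rfx2-/- testis higher in 6.5% of the genes tested. Means were 98.9 ± 40.0 CPM (SD, n = 5) and 196 ± 21.6 CPM (SD, n = 6), with a log2 fold change of 0.98 (SE 0.249, 95% interval 0.44 to 1.53, edgeR adjusted p = 0.02999). The adjusted p missed 0.01 and passed 0.05, the level at which 6.15% of all genes were called higher and 8.78% lower. DESeq2's Wald test gave an adjusted p of 0.0008017 for Spag1, and limma voom with sample weights gave 0.005013. In the 11 edgeR fits that left out 1 mouse, its adjusted p lay between 0.01534 and 0.06679. Spag1 was called in none of these fits, and 0.05 was not passed in all of them. Its log2 fold change there was 0.83 to 1.14.

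**Figure D2:**
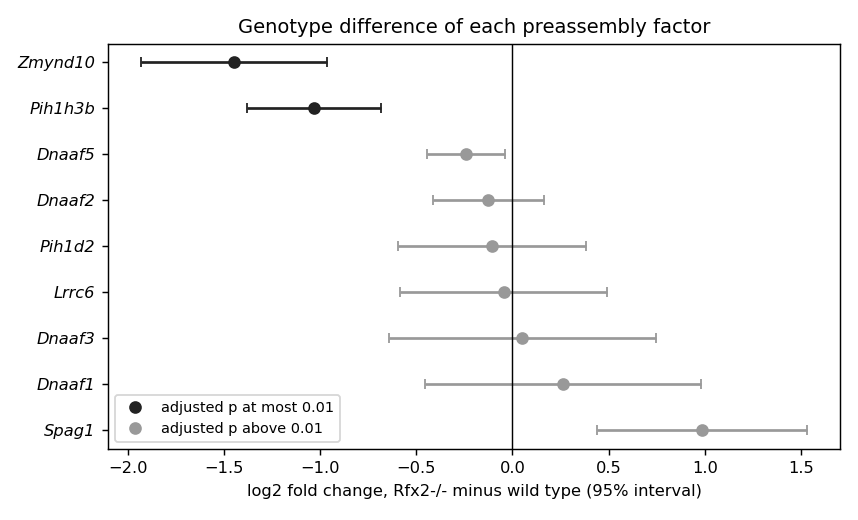
Log2 fold change of each preassembly factor, Rfx2-/- minus wild type, with its 95% interval from edgeR (5 wild type and 6 Rfx2-/- mice). Black marks an adjusted p of at most 0.01. Zmynd10 at -1.45 and Pih1h3b at -1.03 are called, Spag1 stands at 0.98, and the intervals of Dnaaf1, Dnaaf2, Dnaaf3, Lrrc6 and Pih1d2 include 0.

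Lrrc6 (ENSMUSG00000022375, chr15:66379858-66500910 on the minus strand), whose protein is the binding partner of ZMYND10, was not called. Its levels in wild type replicates 1 to 5 were 108, 86.98, 43.2, 85.1 and 41.9 CPM. Rfx2-/- mice had between 58.9 and 87.6 CPM with a median of 68.8 CPM, inside the wild type range. The log2 fold change was -0.045 (SE 0.245, edgeR adjusted p = 0.8963), with a 95% interval from -0.58 to 0.49.

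Dnaaf1 (ENSMUSG00000031831, chr8:119575235-119598454 on the plus strand), the leucine-rich repeat factor, had the widest spread of the 9 genes among wild type mice. Its levels in wild type replicates 1 to 5 were 884, 665, 266, 658 and 224 CPM. Rfx2-/- mice ranged from 517 to 774 CPM with a median of 642 CPM, so they lay within the wild type range. The log2 fold change was 0.26 (SE 0.326, 95% interval -0.46 to 0.98, edgeR adjusted p = 0.5459). In the annotation 17.02% of the exon bases of Dnaaf1 also lie in exons of the protein coding gene Taf1c on the other strand. Reads there were left out of both genes if the annotation used for counting held that overlap.

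Dnaaf2 (chr12:69189087-69198429, minus strand), Dnaaf3 (chr7:4522933-4532453, minus strand) and Pih1d2 (chr9:50617321-50625000, plus strand) had overlapping genotypes as well. In wild type replicates 1 to 5 Dnaaf2 had 75.5, 74.2, 46.4, 73.6 and 49.3 CPM, and in Rfx2-/- mice from 55.8 to 62.4 CPM, with a log2 fold change of -0.13 (edgeR adjusted p = 0.4735). The counted region of Dnaaf2 is uncertain, because 71.4% of its exon bases overlap exons of other annotated genes and 22.3% those of a protein coding one. Dnaaf3 had 83.5, 65.1, 28.1, 57.2 and 27.1 CPM in wild type and from 37.7 to 79.4 CPM in Rfx2-/- mice, with a log2 fold change of 0.051 (edgeR adjusted p = 0.9085). The sign of the Dnaaf3 difference turned with the scaling, to -0.078 when total counts were used as library sizes. Pih1d2, the PIH gene on chromosome 9, had 50.9, 45.9, 24.4, 47.0 and 21.9 CPM in wild type and from 29.9 to 43.9 CPM in Rfx2-/- mice, with a log2 fold change of -0.10 (edgeR adjusted p = 0.7254).

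Dnaaf5 (chr5:139150223-139186510, plus strand), the HEAT repeat factor, varied least among wild type mice of the members other than Pih1h3b. Its levels in wild type replicates 1 to 5 were 115, 111, 80.9, 107 and 86.5 CPM, and Rfx2-/- mice ranged from 78.8 to 91.1 CPM with a median of 85.1 CPM. The genotypes overlapped through wild type replicates 3 and 5. The log2 fold change was -0.24 (SE 0.093, 95% interval -0.45 to -0.04, edgeR adjusted p = 0.08221), which did not pass the call. It passed with total counts as library sizes (log2 fold change -0.39, adjusted p = 0.004234) and with limma voom (log2 fold change -0.32, adjusted p = 0.006248). With total counts the median over all genes was -0.219, and the first of these values includes that shift.

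Levels were also compared per length, as RPKM, the CPM divided by the length of the merged protein coding exons in kilobases. In wild type testis Zmynd10, at 195 ± 72.8 RPKM, and Dnaaf1, at 191 ± 101 RPKM (SD, n = 5), overlapped each other and lay above all other members. Below a gap came Lrrc6 at 35.04 RPKM, Dnaaf5 at 29.0, Dnaaf3 at 23.5, Spag1 at 22.9, Pih1d2 at 20.2 and Dnaaf2 at 18.8, and no neighbours in this order differed beyond their ranges. Pih1h3b was lowest at 0.816 RPKM, below every other member in every wild type mouse. In Rfx2-/- testis Dnaaf1 alone was at the top with 229 ± 37.6 RPKM (SD, n = 6), and Zmynd10 came next with 71.4 ± 5.17 RPKM, without overlap. Spag1 followed at 45.2 RPKM and overlapped Lrrc6 at 33.95 RPKM. Lrrc6 in turn lay above Dnaaf5 at 24.5 RPKM in every mouse. Dnaaf5 was followed by Dnaaf3 at 24.3 RPKM, Pih1d2 at 18.8 and Dnaaf2 at 17.3, neighbours that overlapped, and by Pih1h3b at 0.396 RPKM. This order depends on the length used. The exons of Spag1 measure 4330 bases in protein coding transcripts and 11167 bases in all transcripts, and with the longer length its level was 8.86 RPKM in wild type and 17.5 RPKM in Rfx2-/- testis. In wild type testis the lengths over all transcripts also placed Zmynd10, at 162 RPKM, below Dnaaf1 and Pih1d2, at 13.5 RPKM, below Dnaaf2.

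The members shared a pattern among the wild type mice. Replicates 3 and 5 were the lowest 2 of the 5 for every member but Pih1h3b. The share of all genes with this order was not counted, so it is not shown to be particular to the members. From the lowest to the highest wild type mouse, CPM differed 3.94-fold for Dnaaf1, 3.08-fold for Dnaaf3, 2.84-fold for Spag1, 2.58-fold for Lrrc6, 2.38-fold for Zmynd10 and 2.33-fold for Pih1d2. The same quotient was 1.63 for Dnaaf2, 1.42 for Dnaaf5 and 1.13 for Pih1h3b. Among Rfx2-/- mice it lay between 1.12 for Dnaaf2 and 2.11 for Dnaaf3. The coefficient of variation of CPM ran from 4.84% for Pih1h3b to 52.6% for Dnaaf1 among wild type mice. Among Rfx2-/- mice it ran from 4.01% for Dnaaf2 to 30.8% for Dnaaf3, and it was larger there only for Pih1h3b, at 20.4%. Its median over all genes tested was 19.73% among wild type mice and 10.95% among Rfx2-/- mice.

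Markers of late spermatocytes moved with these levels. P21 falls in the first wave of spermatogenesis, in which successive germ cell stages appear at set ages. The score, the mean log2 CPM of Ccna1, Pou5f2, Hspa2, Pgk2, Ldhc, Cdc25c and Aurkc, was 6.78, 6.68, 5.37, 6.57 and 5.16 in wild type replicates 1 to 5. In Rfx2-/- mice it lay between 6.78 and 7.01. All 7 markers were detected in every mouse, and their summed level ranged from 2220 to 5560 CPM in wild type and from 4920 to 6670 CPM in Rfx2-/- testis. The mean score was 0.758 higher in Rfx2-/- testis (exact permutation test, two-sided, n = 5 and 6, p = 0.004329, the smallest possible value, and 0.04762 after adjustment over 11 cell type scores). The part of this difference in the values of single genes was not tested, and the fits given next cannot settle it.

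**Figure D3:**
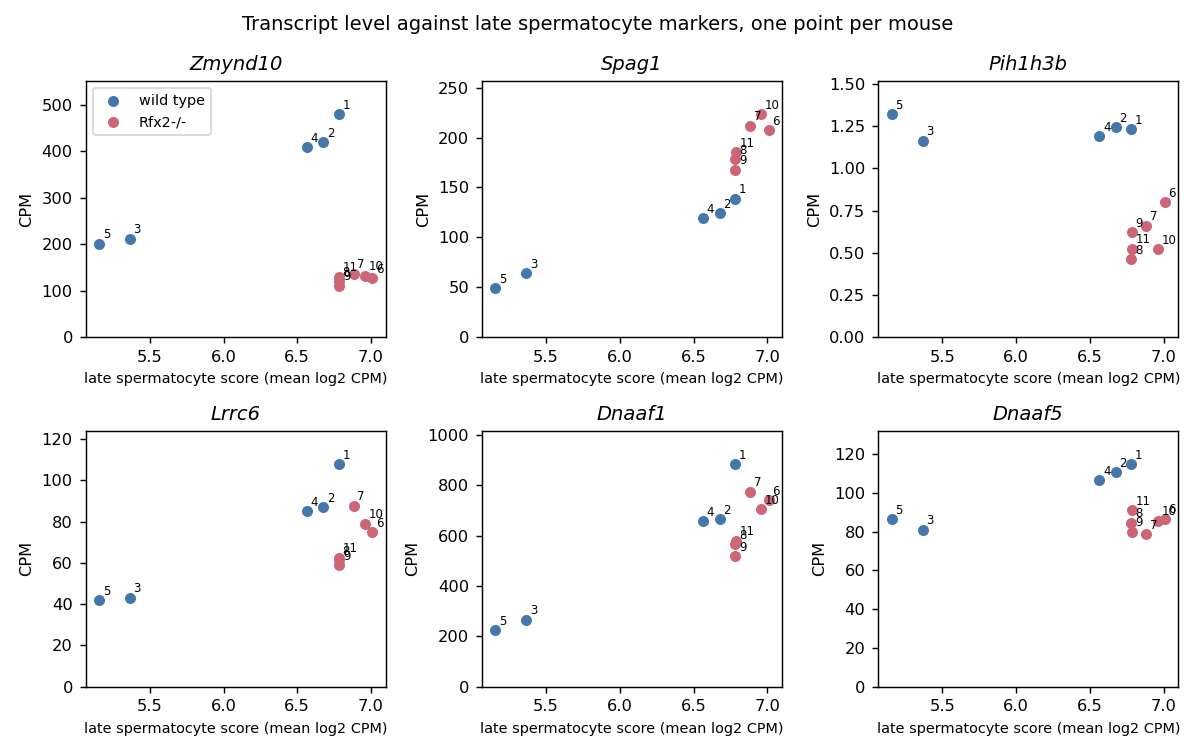
CPM of 6 preassembly factors (linear axis from 0) against the late spermatocyte score (mean log2 CPM of 7 markers), with 1 numbered point per mouse. Wild type replicates 3 and 5 have the lowest scores, 5.37 and 5.16. At scores near those of wild type replicates 1, 2 and 4, the Rfx2-/- mice lie lower for Zmynd10 and Pih1h3b and higher for Spag1.

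With the late spermatocyte score as a covariate, a fit chosen after the data were seen, Zmynd10 fell by 1.93 on the log2 scale (SE 0.061, edgeR adjusted p = 8.137e-09) and Pih1h3b fell by 1.04 (adjusted p = 0.008362). Spag1 was then called higher, with a smaller log2 fold change of 0.44 (SE 0.072, adjusted p = 0.003029). Dnaaf2, Dnaaf5, Lrrc6 and Pih1d2 were called lower in this fit, with log2 fold changes from -0.59 to -0.42. Dnaaf1 changed sign to -0.42 (adjusted p = 0.03159) and was not called, nor was Dnaaf3 at -0.56 (adjusted p = 0.1444). Members called were thus 6 lower and 1 higher, while 590 genes in all were called lower, or 3.75%, and 108 higher, or 0.686%. The score ran from 5.16 to 6.78 in wild type and from 6.78 to 7.01 in Rfx2-/- mice, so it nearly separates the genotypes. A gene that rises with the score is therefore moved lower by this fit, and the count of members called is no separate result.

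When wild type replicates 3 and 5 were left out, also after their scores were seen, Zmynd10 had a log2 fold change of -1.78, Dnaaf5 of -0.38 and Dnaaf2 of -0.34, and these 3 were called lower. Spag1 was called higher at 0.63 (edgeR adjusted p = 0.003415). In this fit 437 of 16057 genes were called lower, or 2.72%, and 170 higher, or 1.06%. Pih1h3b kept its size at -1.01 and missed the threshold with an adjusted p of 0.01234.

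Ratios within a mouse do not depend on library scaling. Lrrc6 was used as the reference, after the values were seen, because no other annotated exon overlaps it and its genotypes were alike in mean CPM. That choice rests on scaled values of these same mice. Mean ratios to Lrrc6 therefore follow the fold changes above and are no separate test of them. In each wild type mouse there were between 4.44 and 4.91 reads of Zmynd10 per read of Lrrc6, replicates 3 and 5 included, and in each Rfx2-/- mouse between 1.56 and 2.08. For Spag1 the ratio was 1.16 to 1.47 in wild type and 2.42 to 2.96 in Rfx2-/- mice. The genotypes did not overlap in either ratio. Dnaaf1 also separated, with 5.36 to 8.19 reads per read of Lrrc6 in wild type and 8.78 to 9.87 in Rfx2-/- mice. Pih1h3b had 0.0114 to 0.0315 and 0.00659 to 0.0106 reads per read of Lrrc6, without overlap. On this ratio, 1.87% of the 15744 other genes tested lay lower in Rfx2-/- testis without overlap and 7.28% lay higher. The ratios of Dnaaf2, Dnaaf3, Dnaaf5 and Pih1d2 overlapped. A ratio shows that 2 transcripts changed unequally, and not that Lrrc6 itself stayed the same.

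**Figure D4:**
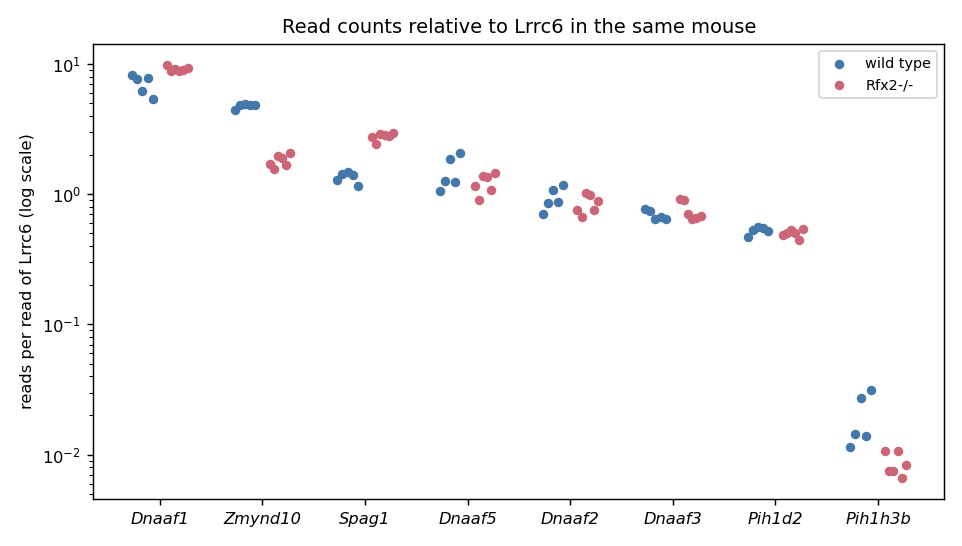
Reads of each preassembly factor per read of Lrrc6 in the same mouse (log axis), with 1 point per mouse for 5 wild type and 6 Rfx2-/- mice. The genotypes do not overlap for Zmynd10 (lower in Rfx2-/-), Spag1 and Dnaaf1 (higher) and Pih1h3b (lower), and overlap for the remaining 4 genes.

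Markers of other cells that use these factors were examined too. Multiciliated cells line the efferent ducts next to the testis. Of 6 multiciliated cell markers, Mcidas, Gmnc and Sec14l3 were at or below 0.283 CPM in every mouse, and Deup1, Foxj1 and Ccno were measured in every mouse. Their summed level was 14.6 to 180 CPM in wild type and 22.1 to 165 CPM in Rfx2-/- testis, and the score did not separate the genotypes (exact permutation p = 0.9004). Efferent duct and epididymis markers were highest in wild type replicate 1, with 417 CPM summed over 7 genes, of which Crisp1 gave 262 CPM. Without that mouse Zmynd10 was called lower at -1.30 (edgeR adjusted p = 0.004707). The part of such cells in the levels of the preassembly factors was not tested. The round spermatid score ranged from -1.59 to 5.24 in wild type and from 0.758 to 5.51 in Rfx2-/- testis (exact permutation p = 0.303). Within each genotype the multiciliated score ranked the mice in the same order as this score. It therefore cannot be read as a measure of multiciliated cells alone. The Sertoli cell score differed by -0.293, Rfx2-/- minus wild type (exact permutation p = 0.02597, 0.131 after adjustment over the 11 scores). No score but that of late spermatocytes had an adjusted p under 0.131.

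For each member the 3 genes with the most similar log2 CPM over the 11 mice were found by Pearson's r, given as a description. The 11 points share the mice that stand apart in late spermatocyte score, and for every member at least 66 genes had an r above 0.9. The points also span both genotypes, so genes most like a member share its genotype difference by construction. Whether such genes were called is therefore no separate result. Zmynd10 was most like Ms4a13 (r = 0.994), Rtn1 (r = 0.993) and Ccdc40 (r = 0.992), and these 3 were called lower, with log2 fold changes of -1.88, -2.04 and -2.16. Ccdc40 encodes a component of the molecular ruler that sets the spacing of inner dynein arms. Spag1 was most like Ap1m1 (r = 0.997), Eps8l3 (r = 0.996) and the flagellar tektin gene Tekt3 (r = 0.996), none of which was called. Pih1h3b was most like Guca1b (r = 0.951), Ankrd7 (r = 0.943) and Apbb1 (r = 0.941), all called lower.

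Of the genes most like the other 6 members, none was called. Dnaaf1 was most like Kif9 (r = 0.997), Ift172 (r = 0.996) and Gk2 (r = 0.995), where Ift172 encodes a subunit of the intraflagellar transport machinery. Lrrc6 was most like Wfdc3 (r = 0.994), B9d1 (r = 0.992) and Nme5 (r = 0.991). Pih1d2 was most like Dpy19l2 (r = 0.991), a gene needed for the sperm head, AI429214 (r = 0.986) and Ulk4 (r = 0.985). Dnaaf3 was most like Cdkl3 (r = 0.990), Hoxd8 and 2210408I21Rik, Dnaaf2 was most like Sirt2 (r = 0.982), Ift20 and Naa11, and Dnaaf5 was most like Pik3cd (r = 0.962), Sssca1 and Cpn1. For Spag1, 2330 genes had r above 0.9, for Dnaaf1 1648, and for Zmynd10 255.

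Of 18 further genes tied to dynein preassembly, including chaperones and R2TP subunits, none was called lower and 1 was called higher, beside 1.94% and 0.73% of all genes. This was Lrrc56, which encodes a leucine-rich repeat protein tied to dynein arm transport. Lrrc56 averaged 149.9 ± 58.3 CPM over 5 wild type mice and 366 ± 38.6 CPM over 6 Rfx2-/- mice (± SD), a log2 fold change of 1.29 (SE 0.238, edgeR adjusted p = 0.008504). Lrrc56 lost its call in 9 of the 11 fits that left out 1 mouse, all but those without wild type replicate 1 or 5, with adjusted p up to 0.02415 and log2 fold changes from 1.14 to 1.46. At an adjusted p of at most 0.05, 1 of the 18 was lower, Cfap300 at -0.57, and 3 were higher, Lrrc56, Cfap298 at 0.83 and Ccdc103 at 0.87, beside 8.78% of all genes lower and 6.15% higher at that threshold. The chaperone genes Hsp90ab1 and Hsp90aa1 and the co-chaperone gene Stip1 had the highest mean CPM of those not called, with log2 fold changes of -0.09, 0.20 and 0.13. The median log2 fold change of the 18 was 0.084.

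The clients of these factors, the axonemal dynein subunits, gave 2 called lower and none called higher among 22 genes tested, beside 1.94% and 0.73% of all genes. Dnaic2, an intermediate chain of the outer arm, averaged 57.4 ± 38.4 CPM over 5 wild type mice and 0.945 ± 0.297 CPM over 6 Rfx2-/- mice (± SD; log2 fold change -5.91, edgeR adjusted p = 0.000148). Dnah10, an inner arm heavy chain, had 98.6 ± 48.6 CPM and 12.3 ± 1.63 CPM (log2 fold change -3.00, adjusted p = 0.0002029). At an adjusted p of at most 0.05, 3 of the 22 were lower, these and Dnali1 at -1.13. At that threshold 2 were higher, Wdr63 at 1.12 and Dnaic1 at 0.98, beside 8.78% of all genes lower and 6.15% higher. The subunits with the highest mean CPM that were not called, Dnah8, Dnah17 and Dnah2, had log2 fold changes of 0.46, 0.52 and 0.36. The median log2 fold change of the 22 was 0.354, with 15 of the 22 above 0, and this direction did not hold throughout: the median was 0.113 without wild type replicates 3 and 5 and -0.123 with the late spermatocyte score as covariate.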

How the data were processed

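Testis RNA of 5 wild type and 6 Rfx2-/- mice at P21 was sequenced. The labels give no batch and no pairing of mice. The authors deposited raw counts per gene and mouse, and all values were whole numbers. Per the labels, CASAVA 1.8.2, STAR 2.4, featureCounts 1.4.6 and the GRCm38 build were used. According to the authors, reads mapping to more than 1 place or to exons of different genes were discarded, and merged exons of protein coding isoforms were counted. The study's methods give different read lengths and aligners in different paragraphs, and TruSeq reads were counted without a stated strand, so overlapping genes are uncertain. The authors' own comparisons were not used.

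Genotypes were compared with edgeR 4.0.16 in R 4.3.3 (filterByExpr by genotype, TMM, glmQLFit, glmQLFTest, no covariates), and a gene was called where its p, adjusted by Benjamini and Hochberg's method over 15745 genes, did not exceed 0.01. P-values set the genotype difference against the spread between mice. Log2 CPM used a prior count of 2, and 95% intervals came from the fit. Single values per mouse were compared by exact permutation tests in SciPy 1.17.1. Symbols, positions and lengths came from GENCODE M21, which named 22293 of the 23074 identifiers, and promoters from RefSeq. Alternatives were voom of limma 3.58.1 with weights per sample, DESeq2 1.42.0 (its size factors, and its Wald test), unscaled total counts, edgeR's robust prior, other filters and thresholds, scores of round spermatid and late spermatocyte markers as covariates, mice left out, other exon lengths and ratios to Lrrc6. The code was tested on simulated data. The members, lists and tests were chosen with earlier results of these data known. Named were all members, for each the 3 genes most like it by r, called genes of the other lists with the 3 most abundant not called, Rfx2, and markers whose level bears on a result. Cfap300, Cfap298, Ccdc103, Pih1d3, Dnali1, Wdr63 and Dnaic1 were named after their values were seen.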

Additional observations from a re-analysis of the deposited data

How the results depend on the processing

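No paired analysis was possible because the groups share no replicate numbers. Counts of calls were not stable across tools, covariates and thresholds, and the cause was not tested. In all genes, calls lower and higher were 909 and 1202 of 20306 with DESeq2's Wald test. They were 290 and 120 of 13504 with a mean count of at least 50. Without wild type replicates 3 and 5 they were 437 and 170 of 16057. The settings given next, up to the late spermatocyte score, tested 15745 genes. Calls were 682 and 367 with limma voom, and 434 and 97 with total counts. With 0.05 as the adjusted threshold they were 1382 and 968 (8.78% and 6.15%). With an unadjusted threshold of 0.01 they were 1604 and 1180, and above 2-fold 163 and 34. With the round spermatid score as covariate they were 692 and 363, and with the late spermatocyte score 590 and 108 (3.75% and 0.686%). Leaving out 1 mouse gave 184 to 393 lower and 45 to 192 higher, with 15630 to 15903 genes tested.

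The calls in all genes given above stand beside the following counts, setting by setting. Settings not named gave the same count as the main fit. Members called lower were 1 with a mean count of at least 50, where Pih1h3b was not tested, and 6 with the late spermatocyte score. They were 3 with total counts, with limma voom, and without wild type replicates 3 and 5. Members called higher, Spag1 in each case, were 1 with DESeq2's Wald test, limma voom, an adjusted p of 0.05, an unadjusted p of 0.01, the round spermatid score, the late spermatocyte score, and without wild type replicates 3 and 5. Leaving out 1 mouse gave 1 to 2 members lower and 0 higher. Among the other preassembly factors, 1 was lower with total counts, DESeq2's Wald test, an adjusted p of 0.05, an unadjusted p of 0.01 and the round spermatid score, 2 with limma voom, 4 with the late spermatocyte score and 3 without wild type replicates 3 and 5. Higher were 3 with DESeq2's Wald test, an adjusted p of 0.05 and an unadjusted p of 0.01, and 2 with limma voom and the round spermatid score. Without 1 mouse, 0 to 1 were lower and 0 to 1 higher. Among the dynein subunits, lower were 3 with DESeq2's Wald test, an adjusted p of 0.05 and an unadjusted p of 0.01. Lower were 4 with limma voom and the round spermatid score, 6 with the late spermatocyte score and 5 without wild type replicates 3 and 5. Higher were 1 with total counts, the late spermatocyte score and without wild type replicates 3 and 5, 2 with DESeq2's Wald test, limma voom, an adjusted p of 0.05 and an unadjusted p of 0.01, and 3 with the round spermatid score. Without 1 mouse, 2 were lower and 0 to 1 higher.

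Zmynd10 was called lower under every alternative run, with log2 fold changes from -1.93 to -1.30. The sign turned for members that were not called. Dnaaf1 stood at -0.42 with the late spermatocyte score and -0.18 without wild type replicates 3 and 5. Dnaaf3 stood at -0.078 with total counts, -0.22 with limma voom, -0.21 with the round spermatid score, -0.56 with the late spermatocyte score and -0.34 without wild type replicates 3 and 5, and between -0.10 and 0.29 without 1 mouse. Without 1 mouse, Lrrc6 ranged from -0.18 to 0.14 and Pih1d2 from -0.24 to 0.024. The round spermatid score difference was 1.89 without Tnp1, Tnp2, Prm1 and Prm2 and 0.705 to 2.41 without 1 mouse, against 1.43 with all. Depth limits Pih1h3b most, at 10 to 42 reads per mouse.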
